A study of Mus musculus with 4 samples.

Results

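MAPK feedback in cultured B cells was described through 10 genes, Dusp1, Dusp2, Dusp4, Dusp5, Dusp6, Dusp10, Spry1, Spry2, Spred1 and Spred2, of the 31053 genes in the count matrix. They were chosen by gene family, as phosphatases of MAP kinases and as members of the Sprouty and Spred families, with earlier results of these data known, and the rule uses no measured value. The scRNA-Seq samples were B cells purified from the spleens of WT mice (C57BL/6 in the study's methods, with no age in the labels), in 2 groups of 2 replicates. Bregs-CpG were cultured for 3 days with CpG B ODN 1668, a TLR9 agonist. Bregs-TLR had the same culture and, on the last day, also received the TLR4 agonist LPS with PMA and ionomycin for 5 hours. CpG was thus common to both groups, and no untreated B cells were part of the scRNA-Seq samples.

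MAP kinases are switched on by phosphorylation of a threonine and a tyrosine in their activation loop. The dual-specificity phosphatases (DUSPs) encoded by the Dusp genes listed above remove both phosphates in the nucleus or the cytoplasm. Sprouty and Spred proteins act further upstream, where they restrain signaling from receptors through Ras to ERK. Many of these genes are transcribed in response to the pathway they restrain, which makes them feedback inhibitors, and in lymphocytes PMA and ionomycin are widely used to activate Ras, protein kinase C and calcium signaling.

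The deposited values were counts of unique molecular identifiers (UMIs), each standing for 1 captured mRNA molecule read at its 3' end. The barcode list had 19920 entries whose endings name libraries 5, 6, 7 and 8, but which library came from which culture is not in the labels. Each library was kept by itself, nothing was averaged over the 4, and no difference between the conditions was tested. After filtering, libraries 5, 6, 7 and 8 held 4196, 4714, 5621 and 4003 cells, with 44842982, 51636750, 63638158 and 45672518 UMIs. Median UMIs per cell were 8752, 8785, 10355 and 10077, and the median mitochondrial share of a cell's UMIs was 7.22%, 7.18%, 4.61% and 4.65%. Pairs of libraries shared 1 to 8 barcodes, at most 0.174% of the smaller library. The 7 B cell markers were detected in all libraries, with Cd79a at 3072, 3239, 1057 and 1033 UMIs per 1000000 (CPM) and Ms4a1 at 1499, 1510, 32.0 and 37.0 CPM. Cd3e and Lyz2, which define T cells and myeloid cells, were at 0 UMIs in all libraries. B cell markers summed to 14054, 14598, 7451 and 7360 CPM and plasma cell markers to 1614, 1779, 389.8 and 339. Of the plasma cell markers, Mzb1 made up most of the difference (1441, 1548, 154 and 157 CPM). Derl3 was also lower in libraries 7 and 8, whereas Xbp1 and Sdc1 were higher there. Jchain and Txndc5 followed neither order, and Tnfrsf17 was near 0. T cell markers summed to at most 7.96, mostly Lck, and NK cell markers to at most 0.981. Myeloid markers, almost wholly Cst3, summed to 101, 104, 71.5 and 70.0. Erythroid markers summed to 4.62, 4.32, 219 and 285 CPM and came almost wholly from Hbb-bt.

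Intervals are 95% intervals for counting error, and they hold no variation between mice or cultures. All 10 members were detected in all 4 libraries. The counts over all cells ranged from 37 UMIs of Spry2 and 119 of Spry1 to 10086 of Dusp10 and 52693 of Dusp2, with 347 UMIs of Dusp1, 1342 of Dusp6, 1343 of Spred2, 1597 of Dusp5, 2263 of Spred1 and 5203 of Dusp4 between them.

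On mouse build GRCm38 (GENCODE vM21), the nuclear, inducible phosphatases Dusp1, Dusp2, Dusp4 and Dusp5 are annotated at chr17:26505590-26562128 (minus strand), chr2:127336159-127338376 (plus), chr8:34807297-34819894 (plus) and chr19:53529109-53542431 (plus). Dusp6 lies at chr10:99263231-99267489 (plus) and Dusp10 at chr1:184013302-184075636 (plus). Spry1 lies at chr3:37639947-37644598 (plus), Spry2 at chr14:105891947-105896819 (minus), Spred1 at chr2:117121374-117182279 (plus) and Spred2 at chr11:19924375-20024026 (plus). The identifiers in the authors' feature table were ENSMUSG00000024190 for Dusp1, ENSMUSG00000027368 for Dusp2, ENSMUSG00000031530 for Dusp4 and ENSMUSG00000034765 for Dusp5. Those of the other members were ENSMUSG00000019960 for Dusp6, ENSMUSG00000039384 for Dusp10, ENSMUSG00000037211 for Spry1, ENSMUSG00000022114 for Spry2, ENSMUSG00000027351 for Spred1 and ENSMUSG00000045671 for Spred2. Each symbol stood in 1 row of that table.

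Because several of the genes differed together between libraries, their promoters were searched for 6 motifs of factors that act downstream of MAP kinases, calcium or TLRs. RefSeq promoters on GRCm38.p6, from 250 bases before to 50 bases after the annotated start, were matched for 9 of the 10 members, all but Dusp4. Each motif was searched on both strands in 32851 promoters. The CRE (TGACGTCA), the site of CREB, was found in 1.79% of all promoters and in 1 of 9 members, Dusp1, at bases 143 to 136 before the start. The EGR site (GCGNGGGCG) was found in 5.55% of all promoters and in 1 of 9 members, Dusp2, at bases 98 to 90. The serum response element, bound by SRF with ETS partners that ERK phosphorylates, was found in 1.63% of all promoters and in 1 of 9 members. That member was Dusp5, with adjacent copies at bases 82 to 73 and 72 to 63. The AP-1 site (TGANTCA, 7.81% of all promoters), the NF-kB site (4.5%) and the ETS site (CCGGAAGT, 3.89%) were in none of these 9 windows. The matches found do not overlap one another. The 3 stretches that hold a match are given 5′ to 3′ on the gene's strand, from base 150 to base 40 before the start, with the motif in capitals. They lie at chr17:26508512-26508622 for Dusp1, chr2:127336009-127336119 for Dusp2 and chr19:53528995-53529105 for Dusp5. The RefSeq starts used here differ from the GENCODE starts for Dusp1 and Dusp5, and the Dusp1 stretch lies inside the GENCODE span given above.
Dusp1: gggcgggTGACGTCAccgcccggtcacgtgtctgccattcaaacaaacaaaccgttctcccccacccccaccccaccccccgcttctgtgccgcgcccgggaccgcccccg
Dusp2: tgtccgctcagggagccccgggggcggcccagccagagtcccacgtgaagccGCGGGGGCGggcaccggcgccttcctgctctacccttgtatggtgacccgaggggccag
Dusp5: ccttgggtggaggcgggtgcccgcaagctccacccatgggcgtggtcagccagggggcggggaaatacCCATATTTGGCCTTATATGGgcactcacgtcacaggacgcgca
A match is a description of these letters only, and binding was not measured.

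Dusp2, the phosphatase first known from activated lymphocytes, was at 68.6 CPM in library 5 (95% interval 66.2 to 71.1), 66.5 in library 6 (64.3 to 68.8), 439 in library 7 (434 to 444) and 399 in library 8 (393 to 405). It was low in libraries 5 and 6 and high in 7 and 8, and the difference between 7 and 8 was also beyond counting error. On the log2 scale library 7 exceeded library 5 by 2.68 (2.62 to 2.73) and library 8 exceeded library 6 by 2.59 (2.53 to 2.64), whereas library 6 over 5 was -0.04 (-0.12 to 0.03) and library 8 over 7 was -0.14 (-0.16 to -0.11).

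Dusp4, a nuclear phosphatase of ERK, JNK and p38, was at 2.14 CPM in library 5 (1.73 to 2.61), 2.89 in library 6 (2.44 to 3.39), 45.5 in library 7 (43.8 to 47.1) and 45.2 in library 8 (43.3 to 47.2). Of the 10 members it had the widest span, with its highest library at 21.2 times its lowest. The log2 ratio was 4.41 (4.11 to 4.72) for library 7 over 5 and 3.97 (3.73 to 4.22) for library 8 over 6. Libraries 7 and 8 did not differ beyond counting error (-0.01, interval -0.09 to 0.07), and library 6 was above library 5 (0.43, interval 0.05 to 0.82). That interval takes no account of several UMIs lying in the same cell, up to 6 in library 6. The shares of cells with a UMI had intervals that overlapped, at 1.62% to 2.50% in library 5 and 2.06% to 2.97% in library 6.

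Dusp5, a nuclear phosphatase with ERK as its substrate, was at 2.30 CPM in library 5 (1.87 to 2.79), 2.13 in library 6 (1.75 to 2.57), 12.6 in library 7 (11.8 to 13.5) and 12.7 in library 8 (11.7 to 13.8). Like Dusp2 and Dusp4 it was low in libraries 5 and 6 and high in 7 and 8, with a smaller span of 5.96 times from lowest to highest. The log2 ratio was 2.46 (2.16 to 2.77) for library 7 over 5 and 2.58 (2.28 to 2.88) for library 8 over 6, and neither library 6 over 5 (-0.11, interval -0.51 to 0.29) nor library 8 over 7 (0.01, interval -0.15 to 0.16) passed counting error.

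Dusp1, an immediate-early gene whose product acts mainly on p38 and JNK, did not share this pattern. It was at 1.78 CPM in library 5 (1.41 to 2.22), 1.92 in library 6 (1.56 to 2.33), 1.52 in library 7 (1.24 to 1.86) and 1.55 in library 8 (1.21 to 1.96). The intervals of all 4 libraries overlapped, and the 6 log2 ratios between libraries ran from -0.33 to 0.10 with intervals that all included 0. At 71 to 99 UMIs per library, the interval for library 7 over 5 was -0.67 to 0.22.

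Dusp6, the cytoplasmic phosphatase of ERK, was at 6.94 CPM in library 5 (6.19 to 7.75), 5.65 in library 6 (5.02 to 6.34), 6.85 in library 7 (6.22 to 7.53) and 6.63 in library 8 (5.91 to 7.42). Library 6 was lowest and the other 3 lay together, so that the libraries interleaved. The log2 ratio was -0.29 (-0.53 to -0.06) for library 6 over 5 and 0.28 (0.06 to 0.50) for library 7 over 6, and -0.02 (-0.23 to 0.20) for library 7 over 5. For library 8 over 6 it was 0.23, with an interval that included 0 (-0.01 to 0.47).

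Dusp10, a phosphatase of p38 and JNK that is found in both nucleus and cytoplasm, was at 44.0 CPM in library 5 (42.1 to 46.0), 43.7 in library 6 (42.0 to 45.6), 55.6 in library 7 (53.8 to 57.5) and 50.7 in library 8 (48.7 to 52.8). It was somewhat higher in libraries 7 and 8 and its total range was 1.27 times. The log2 ratio was 0.34 (0.26 to 0.42) for library 7 over 5 and 0.21 (0.13 to 0.30) for library 8 over 6, and library 8 was below library 7 (-0.13, interval -0.21 to -0.06). When immunoglobulin, mitochondrial and ribosomal protein genes were taken out of the denominator, those ratios of library 7 over 5 and library 8 over 6 were 0.15 and 0.09.

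**Figure D1:**
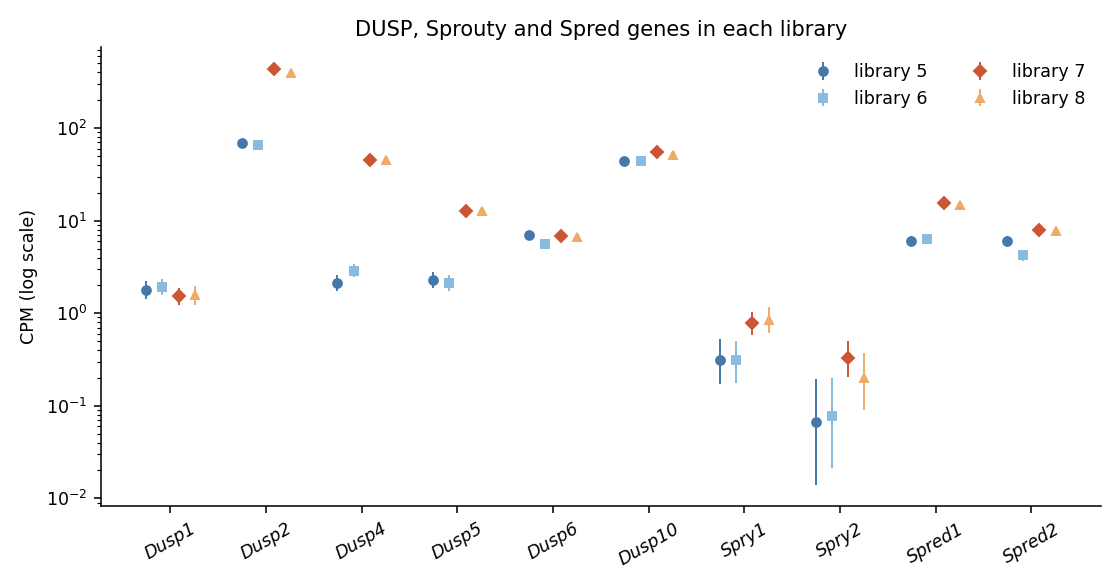
CPM (log axis) of each of the 10 genes in libraries 5, 6, 7 and 8, with exact Poisson 95% intervals as bars. Dusp2, Dusp4, Dusp5 and Spred1 sit higher in libraries 7 and 8 than in 5 and 6, with Dusp2 at 439 and 399 CPM against 68.6 and 66.5, whereas Dusp1 and Dusp6 lie at similar heights in the 4 libraries.

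The Sprouty genes were close to the limit of detection. Spry1, an inhibitor of receptor signaling to Ras, was at 0.312 CPM in library 5 (0.171 to 0.524), 0.310 in library 6 (0.177 to 0.503), 0.786 in library 7 (0.583 to 1.04) and 0.854 in library 8 (0.607 to 1.17). These values rest on 14, 16, 50 and 39 UMIs. They were higher in libraries 7 and 8, with log2 ratios of 1.33 (0.45 to 2.30) for library 7 over 5 and 1.46 (0.59 to 2.40) for library 8 over 6. Spry2, its paralog, had 3, 4, 21 and 9 UMIs, or 0.0669, 0.0775, 0.330 and 0.197 CPM. Library 7 was above libraries 5 and 6 beyond counting error (2.30, interval 0.56 to 4.69, and 2.09, interval 0.52 to 4.09), but library 8 was not (1.56, interval -0.44 to 4.08, and 1.35, interval -0.49 to 3.50).

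Spred1, the Sprouty-related protein that brings neurofibromin to Ras at the membrane, was at 6.07, 6.31, 15.6 and 14.7 CPM in libraries 5, 6, 7 and 8. Libraries 7 and 8 were both above 5 and 6, and within neither pair was the difference beyond counting error. The log2 ratio was 1.36 (1.17 to 1.56) for library 7 over 5 and 1.22 (1.03 to 1.42) for library 8 over 6. Spred2, its relative, was at 6.0 CPM in library 5 (5.30 to 6.76), 4.24 in library 6 (3.70 to 4.84), 7.89 in library 7 and 7.73 in library 8. Library 6 stood below library 5 by more than counting error (-0.50, interval -0.76 to -0.24), so that the log2 ratio of library 7 was 0.40 (0.18 to 0.61) over library 5 and 0.90 (0.66 to 1.13) over library 6.

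A member was called where the CPM differed by at least 2-fold and the pair of libraries held at least 20 UMIs of it, which is a rule of size and not a test. All 10 members could be called for library 7 over 5, and 6 of them were higher by that rule, against 16.6% of all genes (16.5% were lower). These were Dusp2, Dusp4, Dusp5, Spry1, Spry2 and Spred1. Spry2 met the minimum only through library 7, with 21 UMIs there and 3 and 4 in libraries 5 and 6. Its calls over libraries 5 and 6 are thus no support for a difference. For library 7 over 6 the count was also 6 of 10, against 15.8% of all genes higher and 17.3% lower. For library 8 over 5 it was 5 of 9, against 14.7% higher and 17.4% lower, and for library 8 over 6 it was 5 of 9, against 14.0% higher and 18.3% lower, with Spry2 below 20 UMIs in both pairs. No member was called lower in any of these pairs. For library 6 over 5, 0 of 9 members and 0.999% of all genes were called in either direction, and for library 8 over 7 the figures were 0 of 10 members and 1.66%. Comparisons that use the same library share its counting error and are not independent.

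The median log2 ratio of the members was 1.35 for library 7 over 5, 1.28 for 8 over 5, 1.32 for 7 over 6 and 1.22 for 8 over 6, beside 0.14, 0.08, 0.09 and 0.03 for all genes. For library 6 over 5 and library 8 over 7 it was -0.01 and -0.04, beside 0.04 and -0.06. Depth per cell, the mitochondrial share and the B cell markers moved with these differences between libraries. So did the sum of plasma cell markers, mainly through Mzb1, and that of erythroid markers, almost wholly through Hbb-bt. The part of all these in the differences was not tested. Over 7 other scalings and filters the log2 ratio of library 7 over 5 ran from 2.49 to 2.70 for Dusp2, from 4.22 to 4.57 for Dusp4, from 2.27 to 2.49 for Dusp5 and from 1.17 to 1.43 for Spred1. It ran from 0.15 to 0.36 for Dusp10, from 0.20 to 0.56 for Spred2, from 1.10 to 1.39 for Spry1 and from 2.10 to 2.67 for Spry2. For Dusp6 it ran from -0.21 to 0.03 and so changed sign, and for Dusp1 it ran from -0.42 to -0.07.

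**Figure D2:**
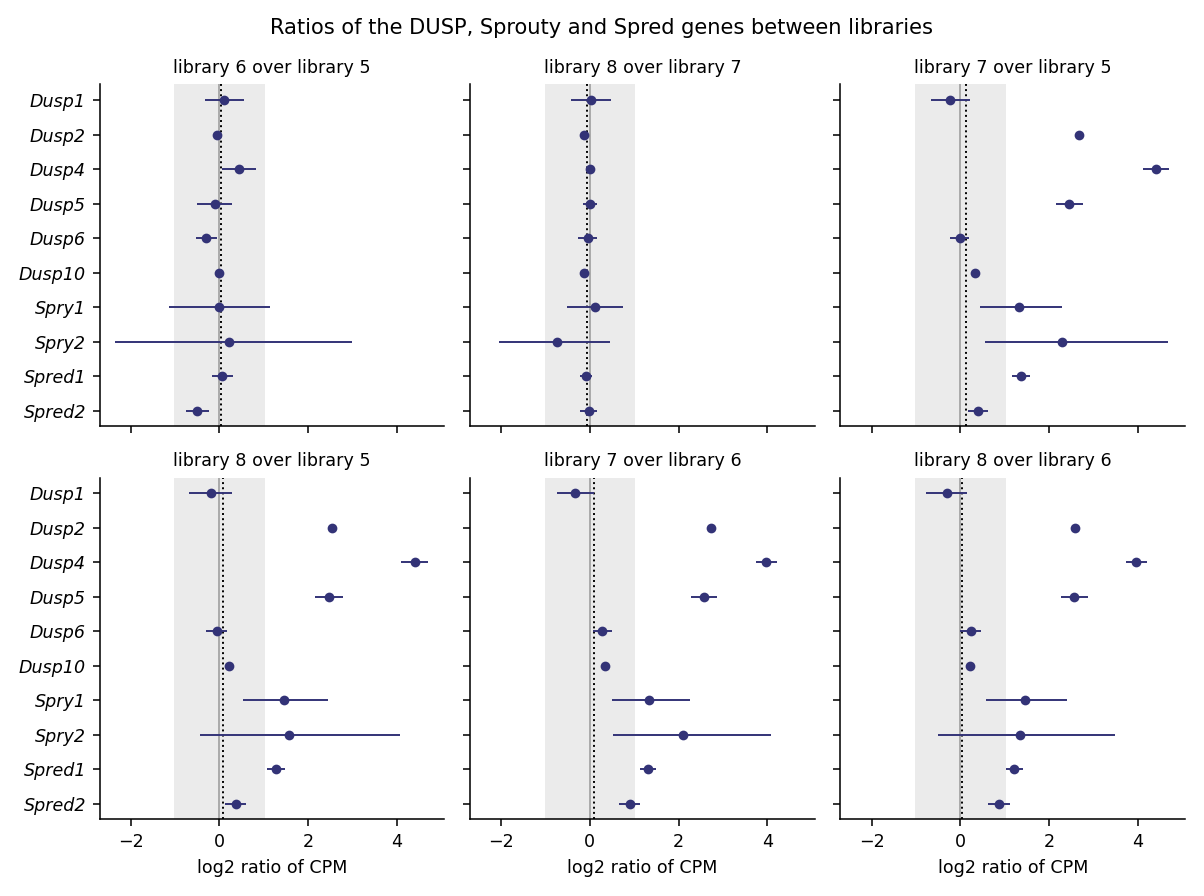
Log2 ratios of CPM of the 10 genes for the pairs of libraries, with exact conditional 95% intervals as bars, ratios under 2-fold shaded and the median of all genes dotted. Dusp4 lies furthest to the right, at 4.41 for library 7 over 5, and for library 6 over 5 and library 8 over 7 the genes with at least 20 UMIs lie between -0.74 and 0.43.

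Seen per cell, Dusp2 was detected with at least 1 UMI in 41.7%, 41.3%, 84.6% and 83.6% of the cells of libraries 5, 6, 7 and 8. After each cell was thinned to 5000 UMIs, the shares were 26.1%, 25.2%, 73.0% and 70.4%, so that libraries 7 and 8 stayed higher at equal depth. Thinning left out 158, 114, 233 and 157 cells with fewer UMIs. Unthinned, cells with the transcript held 1.76, 1.76, 5.88 and 5.45 Dusp2 UMIs on average, and the highest cell held 16, 17, 41 and 49. The share of cells and the number of UMIs in each such cell were both higher in libraries 7 and 8.

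Dusp4 was found in 2.03%, 2.48%, 29.8% and 28.9% of cells, or 0.893%, 1.01%, 16.5% and 16.1% at 5000 UMIs. Even in libraries 7 and 8 most cells thus had no Dusp4 UMI at this depth, while single cells reached 25 and 24 UMIs, against 2 and 6 in libraries 5 and 6. At 5000 UMIs the variance of Dusp4 over cells was 1.04, 1.16, 1.37 and 1.47 times its mean and that of Dusp2 was 1.40, 1.47, 2.46 and 2.44 times, where pure counting would give 1.

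Dusp5 was found in 2.36%, 2.25%, 9.93% and 10.4% of cells (1.16%, 1.07%, 5.21% and 5.22% at 5000 UMIs) and Spred1 in 6.05%, 6.36%, 15.1% and 15.1% (2.85%, 3.00%, 7.25% and 7.07%). Dusp10 was found in 34.2%, 33.9%, 40.6% and 38% of cells (19.7%, 19.2%, 23.0% and 21.2%). For these genes the shares followed the CPM. Dusp6 (6.65%, 5.98%, 6.85% and 6.70% of cells, with 3.27%, 2.70%, 3.26% and 3.14% at 5000 UMIs) and Dusp1 (1.88%, 2.06%, 1.60% and 1.70%, with 0.810%, 0.901%, 0.734% and 0.649%) showed no such step. Spred2 was found in 5.98%, 4.35%, 8.36% and 8.19% of cells (2.81%, 1.92%, 3.84% and 3.75%), and Spry1 and Spry2 in less than 1% of the cells of any library. No cell type that should lack these genes was present to measure free RNA, so the lowest shares cannot be told apart from background.

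At 5000 UMIs a cell had on average 0.578, 0.552, 1.33 and 1.28 of the 10 members detected (1.01, 0.991, 1.98 and 1.94 unthinned). Dusp2, detected in 26.1%, 25.2%, 73.0% and 70.4% of cells at this depth, gave the largest part of each thinned mean. In 1 draw of 5000 UMIs per cell, 52.9%, 53.9%, 14.6% and 16.7% of the cells had none of the 10, and 0.718%, 0.717%, 8.70% and 8.22% had at least 3. Among cells of 1 library the members hardly went together. Spearman's rho over the 45 pairs of members ran from -0.03 to 0.04 in library 5, from -0.03 to 0.07 in library 6, from -0.02 to 0.07 in library 7 and from -0.02 to 0.06 in library 8, over 3846 to 5388 cells. With counts this sparse, such values are a description and no finding.

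**Figure D3:**
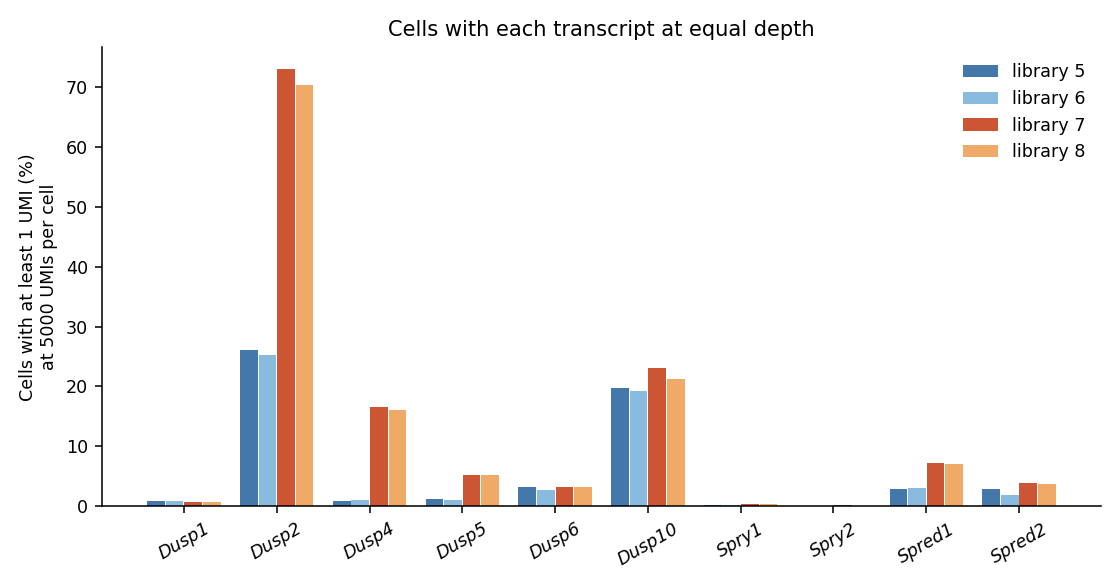
Percent of cells with at least 1 UMI of each of the 10 genes in libraries 5, 6, 7 and 8, as the expected share when each cell is thinned to 5000 UMIs. Dusp2 reaches 73.0% and 70.4% of cells in libraries 7 and 8 and Dusp4 16.5% and 16.1%, and most other genes stay below 10%.

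Clustering without the members and their pathway genes gave 7 clusters, lettered A to G by size. Cluster A (6981 cells, led by Ltb), cluster D (884 cells, Ly6k and Ccl3) and cluster E (880 cells, mitosis markers at 1404 CPM in sum) came almost wholly from libraries 5 and 6. Cluster B (6880 cells, with Il10 at 263 CPM), cluster C (2109 cells, led by Mcm genes of DNA replication) and cluster F (531 cells, mitosis markers at 1479 CPM) came almost wholly from libraries 7 and 8. Cluster G (269 cells, led by Jchain, with plasma cell markers at 10614 CPM in sum) had cells of all 4 libraries. Because most clusters belong to 1 pair of libraries, members were compared between clusters only within a library, among clusters with at least 50 cells there.

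Dusp4 was higher in the mitotic cluster F than in B and C. In library 7 it was at 95.6 CPM in F (87.1 to 104.7), 36.4 in B and 46.2 in C, and in library 8 at 101.3 in F (91.8 to 111.5), 35.1 in B and 45.2 in C. Both libraries thus had the same order. In libraries 5 and 6, at a far lower level, it was at 3.25 and 5.17 CPM in the mitotic cluster E, at 3.61 and 4.33 in D, which is low in mitosis markers, and at 1.37 and 1.64 in A. In cluster G of library 7, Dusp4 was at 187.7 CPM (158 to 221), the highest of the clusters compared, on 142 UMIs from 55 cells. This interval, too, leaves out that several UMIs can lie in the same cell. In G of libraries 5 and 6, Dusp4 was at 6.45 CPM, on 5 and 7 UMIs.

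Dusp5 was also higher in F than in B and C of libraries 7 and 8, with 29.9 and 25.7 CPM in F, 12.0 and 11.3 in B and 8.26 and 10.7 in C, and with 37.0 in G of library 7. Dusp6 was at 13.2 CPM (10.2 to 16.8) and 10.4 CPM (7.54 to 14.0) in F and 6.54 and 6.46 in B. In the mitotic cluster E of libraries 5 and 6, neither gene was above A in both libraries. Dusp5 was at 1.17 and 2.64 CPM in E, on 9 and 24 UMIs, against 2.36 and 2.03 in A. Dusp6 was at 6.76 and 6.38 CPM in E against 7.12 and 5.72 in A. Dusp1 was at 3.51 and 4.07 CPM in the mitotic cluster E of libraries 5 and 6, above 1.5 in A of both. In F of libraries 7 and 8, Dusp1 was at 3.71 CPM (2.20 to 5.86) and 4.36 CPM (2.59 to 6.89), on 18 UMIs in each. Cluster B was lower, at 1.02 and 1.10 CPM. Cluster C was at 2.13 CPM (1.51 to 2.93) and 1.78 CPM (1.10 to 2.71), with intervals that overlapped those of F. Cells of clusters E and F were the deepest, with medians of 16688.5 and 16244 UMIs against 8192 in A and 9444.5 in B, and the part of depth was not tested.

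Dusp2 and Dusp10 went the other way. Dusp2 was at 366 and 350 CPM in F of libraries 7 and 8, below 453 and 412 in B and 436 and 398 in C, and at 56.0 and 53.4 in E of libraries 5 and 6, below 69.0 and 67.7 in A and 89.2 and 85.6 in D. In cluster G it was at 14.2, 35.9 and 249.9 CPM in libraries 5, 6 and 7, the lowest cluster of each. Dusp10 was at 37.7 and 41.7 CPM in F against 58.2 and 52.9 in B, and at 32.2 and 34.1 in E against 46.6 and 46.8 in A. Spred1 ranged little within libraries 7 and 8, from 13.2 to 17.5 CPM over the 4 clusters of library 7. Spred2 was at 9.35 and 6.60 CPM in E of libraries 5 and 6 and at 5.43 and 3.66 in A. In libraries 7 and 8, Spred2 was at 8.24 and 11.4 CPM in F and at 8.18 and 7.08 in B.

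Members that differed at least 2-fold between the highest and lowest cluster of a library numbered 7 of 8 in library 5, against 49.1% of all genes, 5 of 8 in library 6 (46.4%), 8 of 10 in library 7 (47.5%) and 4 of 9 in library 8 (16.2%, 3 clusters). The counts of libraries 5 and 6 differed with the clustering. They were 2 in each at resolution 0.1 (2 clusters compared), 3 in each at resolution 0.5 (4 clusters) and 3 in each with 30 principal components (3 clusters). Fewer clusters leave less room for a 2-fold range, and the share of all genes was not counted for these clusterings. Several calls turned on the small cluster G. Without it, the counts were 4 of 8 in library 5 (24.2% of all genes), 2 of 8 in library 6 (23.2%) and 5 of 10 in library 7 (16.3%). Dusp1 and Dusp4 were called in each of these 3 libraries without G, and in library 8, where G had too few cells. The rule sets no minimum of UMIs within a cluster, so some calls rest on few. Spry1 was called on 0 UMIs in F of library 7, and on 2 in F against 15 in C of library 8. Without G, Dusp5 was called in library 5 on 9 UMIs in E, and Dusp1 in libraries 5 and 6 on 6 and 5 UMIs in D. The cells were clustered on the same data, so these differences have no test.

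**Figure D4:**
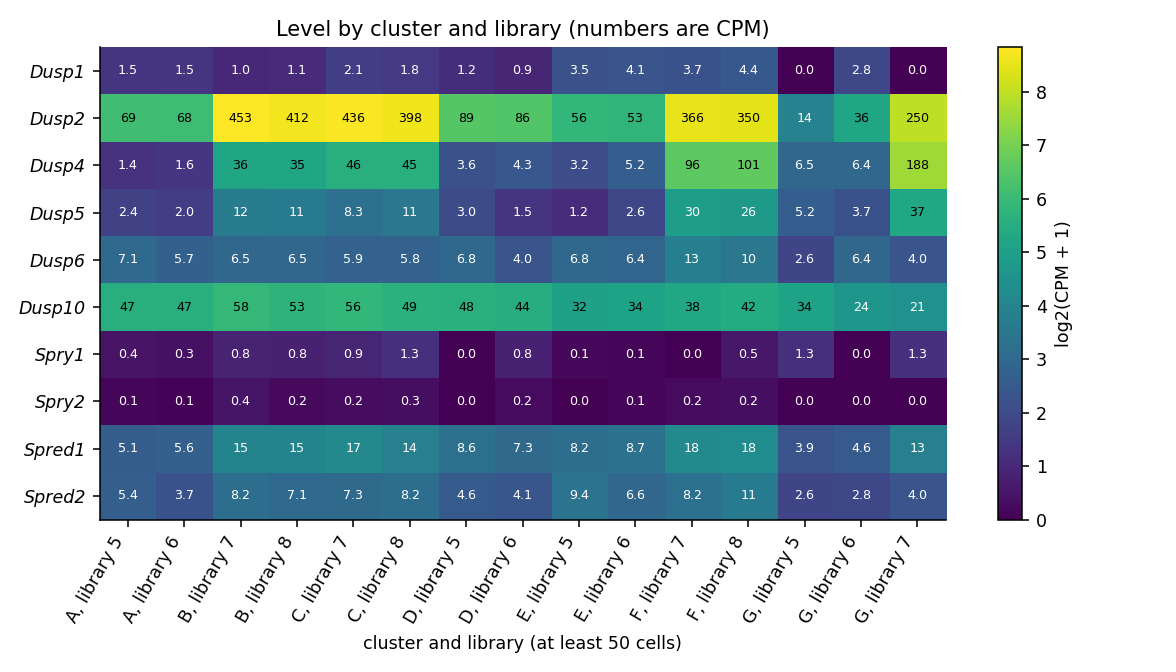
Level of the 10 genes (rows) in each combination of cluster and library with at least 50 cells (columns), with the CPM written in each cell and log2(CPM + 1) as its color. Dusp4 is higher in cluster F (95.6 and 101.3 CPM) than in B (36.4 and 35.1 CPM) in libraries 7 and 8, whereas Dusp2 is lower in F than in B.

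Il10, the cytokine by which regulatory B cells are most often defined, was at 13.7, 11.1, 255 and 253 CPM in libraries 5, 6, 7 and 8. Among cells with at least 5000 UMIs, 307, 348, 3845 and 2791 had an Il10 UMI and 3731, 4252, 1543 and 1055 had none. Dusp5 was higher in the Il10-positive cells of every library. Its level, as the mean of the single cells' CPM, was 6.13 in Il10-positive and 2.10 in Il10-negative cells of library 5 and 4.84 and 1.95 in library 6. In library 7 the levels were 13.9 and 9.15, and in library 8 they were 13.9 and 8.95. On summed counts the log2 ratio was 1.26 (0.52 to 1.95), 1.39 (0.70 to 2.03), 0.61 (0.34 to 0.88) and 0.59 (0.27 to 0.93), above 0 in all 4 libraries.

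Dusp2 was also higher in Il10-positive cells of every library, at 95.3 and 67.6 CPM in library 5, 106.7 and 64.2 in library 6, 477 and 377 in library 7 and 436 and 313 in library 8. By the 2-fold rule, 1 member, Dusp5, was called higher in libraries 5 and 6 and none in 7 and 8, against 2.46%, 2.59%, 1.48% and 1.39% of all genes. Dusp10 had log2 ratios of 0.16, 0.19, 0.27 and 0.30 on summed counts, with an interval that included 0 in library 5. Dusp4 had 0.03, 0.65, 0.20 and 0.02, and only in library 7 did the interval (0.08 to 0.33) exclude 0. Il10-positive cells had more UMIs (medians of 12341 against 8725, 13089.5 against 8684, 10837 against 9796 and 10631 against 9514). In libraries 5 and 6, Il10 was also higher in cluster D (52.5 and 33.3 CPM) than in A (6.96 and 6.11 CPM). The parts of depth and of cluster were not tested.

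Over the 15 combinations of cluster and library with at least 50 cells, the genes most like each member were sought among 6629 genes with at least 10 CPM, by Pearson's r of log2(CPM + 1). For Dusp2 these were Shisa3 (r = 0.99), Lrrc32 and Aggf1, and for Spred1 they were Snrnp35 (r = 0.99), Seh1l and Pabpc1. As many as 683 genes had r above 0.9 with Dusp2 and 784 with Spred1, since any gene that separates the libraries in the same way scores high. The patterns of Dusp4 and Dusp5 were shared by fewer genes, 92 and 24. Tiparp, a mono-ADP-ribosyltransferase, was among the closest 3 for both, beside Timd2 (r = 0.97) and Ercc1 for Dusp4, and Ctsb and Sat1 for Dusp5.

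The other members had their own neighbors. Dusp1 was closest to Cep162 (r = 0.95), Stim2 and Spc25, of which Spc25 is a kinetochore protein. Dusp10 was closest to Guf1 (r = 0.95), Gimap5 and Rpl27, and Spred2 to Spidr (r = 0.95), Psmc1 and Ssna1. No gene had r above 0.9 with Dusp6, whose nearest were Tlk2 (r = 0.88), Cmtm8 and Ube2z, or with Spry1, whose nearest were Nagpa (r = 0.80), Bnip3 and Csnk1g1. Spry2 was nearest to Gtf2h3 (r = 0.91), Mapk1ip1l and Nudt3. The neighbors of Dusp1, Spry1 and Spry2 rest on few UMIs. Dusp1 had 0 UMIs in cluster G of libraries 5 and 7, and 6 and 5 in cluster D of libraries 5 and 6. Spry1 was highest in cluster G of libraries 7 and 5, on 1 UMI in each. Spry2 had its most UMIs, 16, in cluster B of library 7. The 15 points share libraries and clusters, and the correlations are a description.

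Around the members, 4 further lists, set up by gene name or pathway, were counted by the same 2-fold rule. The shares of all genes beside them were 16.6% higher and 16.5% lower for library 7 over 5 and 14.7% and 17.4% for 8 over 5. They were 15.8% and 17.3% for 7 over 6 and 14.0% and 18.3% for 8 over 6. Of 15 other DUSP, Sprouty and Spred genes, 4 of 13 were higher and 0 lower for library 7 over 5 (background 16.6% higher), 4 and 1 of 13 for 7 over 6 (15.8%), 1 and 0 of 10 for 8 over 5 (14.7%) and 2 and 0 of 11 for 8 over 6 (14.0%). The count for 8 over 5 was thus below the background share. Spry4, another Sprouty, was at 0 UMIs in libraries 5 and 6 and at 1.90 and 1.47 CPM in libraries 7 and 8. With a floor of 3 counts put in place of 0, library 7 was 28.4-fold above library 5 and library 8 was 25.2-fold above library 6. The exact intervals of the log2 ratio had lower limits of 4.51 for library 7 over 5 and 4.32 for library 8 over 6. Dusp16, a phosphatase of JNK, was at 8.74, 7.73, 18.4 and 16.6 CPM. Spred3 (1.61, 1.67, 0.817 and 0.854 CPM) and Dusp23 (3.46, 2.79, 2.36 and 1.82 CPM) were lower in libraries 7 and 8. For Dusp23, library 7 over 6 was not beyond counting error (log2 ratio -0.24, interval -0.58 to 0.10). Dusp22 (5.98, 6.55, 5.20 and 4.95 CPM) and Dusp3 (7.65, 7.61, 6.52 and 6.35 CPM) varied least.

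Of 18 Ras, RAF and MAP kinase genes, 3 were higher and 1 lower in each of these 4 pairs, beside 14.0% to 16.6% of all genes higher and 16.5% to 18.3% lower. The higher count was close to the background share, and the genes are named for their values alone. Higher in libraries 7 and 8 were Ksr1, a scaffold of the RAF-MEK-ERK cascade (5.33, 5.17, 19.9 and 19.2 CPM), Hras (38.5, 41.6, 109.7 and 110.9 CPM) and Map2k3, an activator of p38 (14.7, 14.9, 31.4 and 30.6 CPM). Lower was Map2k6, also an activator of p38 (2.88, 3.02, 1.07 and 0.985 CPM). Mapk8, which encodes JNK1 (12.8, 12.7, 13.9 and 14.4 CPM), varied least.

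Of 12 regulators of Ras and partners of Sprouty and Spred, 1 was higher and 3 were lower in 3 of these pairs, and 0 and 3 for library 8 over 6, beside 14.0% to 16.6% of all genes higher and 16.5% to 18.3% lower. With so few genes these counts are not set apart from the background. The exchange factors Rasgrp3 (57.2, 57.6, 4.90 and 4.44 CPM) and Rasgrp1 (27.0, 26.9, 3.27 and 3.09 CPM), which diacylglycerol and phorbol esters activate, were both lower in libraries 7 and 8. So was the ubiquitin ligase Cblb (86.2, 89.4, 26.7 and 25.8 CPM), whereas the Ras GTPase-activating gene Rasa2 was higher (28.9, 30.5, 61.8 and 59.5 CPM). Grb2, an adaptor to which Sprouty proteins bind, was at 343, 355, 358 and 335 CPM, and Rasal3 was at 17.3, 17.4, 22.2 and 19.6 CPM.

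The fourth list, 14 ERK-responsive transcription factors and early genes, was counted in the same way. For library 7 over 5, 9 of 14 were higher, for 8 over 5 it was 8 of 13, for 7 over 6 it was 11 of 14 and for 8 over 6 it was 8 of 13, beside 16.6%, 14.7%, 15.8% and 14.0% of all genes, and none was lower. The medians of their log2 ratios were 1.73, 1.43, 1.93 and 1.67, beside 0.14, 0.08, 0.09 and 0.03 for all genes. Fosl1, an AP-1 subunit, was at 0 UMIs in library 5, at 1 UMI in library 6 (0.0194 CPM), and at 6.80 and 5.34 CPM in libraries 7 and 8. Its calls met the minimum of 20 UMIs only through libraries 7 and 8. So did the calls of 1 further gene for library 7 over 5 and 7 over 6, through 28 UMIs in library 7 against 0 in libraries 5 and 6. Egr2 was at 1.36, 1.26, 11 and 10.5 CPM, Junb at 73.7, 67.3, 354 and 343 CPM and Egr1 at 35.7, 20.4, 95.1 and 95.4 CPM. Atf3 (80.7, 79.9, 53.7 and 56.0 CPM) and Egr3 (6.98, 7.01, 5.70 and 7.71 CPM), which varied least, did not share the direction.

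**Figure D5:**
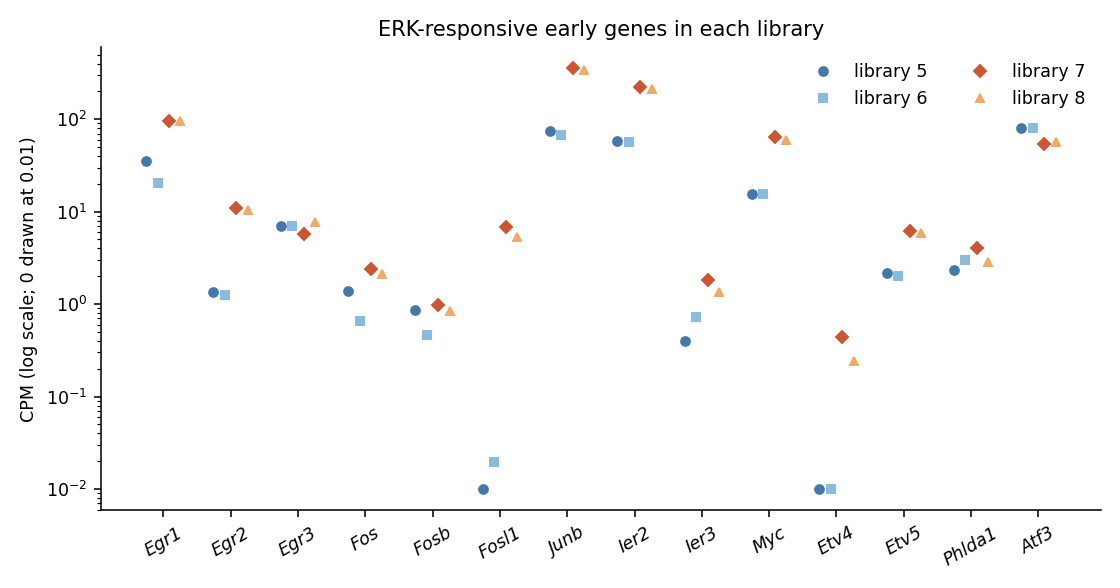
CPM (log axis, with 0 drawn at 0.01) of the 14 ERK-responsive transcription factors and early genes in libraries 5, 6, 7 and 8. Fosl1, Egr2 and Junb are higher in libraries 7 and 8, with Junb at 354 and 343 CPM against 73.7 and 67.3, whereas Atf3 is lower there.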

How the data were processed

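Single-cell RNA was measured in splenic B cells of 4 samples (2 Bregs-CpG, 2 Bregs-TLR). Per the labels' processing notes and the study's methods, the authors used bcl2fastq and Cell Ranger (version 3.1.0, mm10) and combined libraries with its aggregation step, which evens out sequencing depth. The deposited matrix holds UMI counts, not scaled or imputed. The aggregation step may have lowered them, so UMIs per library and per cell need not be the original depths. It has 35989 columns and 19920 barcodes, without a stated link. Barcodes were placed on the final columns, since mean expression shifted where library 7 would then start (percentile 100 of the used columns), and at the starts of libraries 6 and 8 the shift was at percentiles 92.6 and 96.4. The other 16069 columns were not used. Library numbers name no sample, so samples could not be grouped by library, and the comparison of conditions was not made. The study's MAST test between clusters was not repeated, because cells are not replicates.

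Cells with at least 1000 genes and under 10% mitochondrial UMIs were kept (18534). UMIs of a gene were divided by all UMIs of the library. The depth, 44842982 to 63638158 UMIs per library, sets the precision given by the intervals. Intervals at 95% were exact Poisson (CPM), exact conditional (ratios) and Clopper-Pearson (shares). Calls were made at 2-fold in genes with at least 20 UMIs in the pair, over all genes. Clusters came from Seurat (version 5.3.0, R 4.3.3) with 2000 variable genes, of which 1983 remained without the listed genes, 20 principal components, 20 neighbors and resolution 0.3. No doublet caller was run and no doublet removed. Python 3.11.15, NumPy 2.4.6, SciPy 1.17.1, pandas 2.3.3 and edgeR 4.0.16 (TMM factors only) were used. Only the 2-fold call and the intervals of ratios between libraries were tested on simulated data, which were library sums with pure counting error. The members and lists were chosen with earlier results of these data known. Named genes were all 10 members, in each list the 4 most and the 2 least variable by the ratio of highest to lowest library among genes with at least 50 UMIs, and the 3 genes most like each member, and 1 gene that this rule names is not reported here. Alternatives covered the cell filter, the deepest cells, the denominator, TMM, median centring, single-cell means, fold, thinning depth and clustering.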

Additional observations from a re-analysis of the deposited data

How the results depend on the processing

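No paired analysis was possible because the libraries carry no sample or replicate numbers, and for the same reason leaving out each replicate was not run. Of 110 alternative values of the main results, 90 stayed within their limits and 20 moved. These results are counts and levels, which could not be labelled as reversed. The means thinned to 3000 UMIs were put down as moved without a limit. The count of members called for library 8 over 7 was 1 in place of 0 with the mean of single-cell CPM and 1 at 1.5-fold. The summed CPM of the members was 260, 248, 966 and 917 in libraries 5, 6, 7 and 8 with immunoglobulin, mitochondrial and ribosomal protein genes taken out of the denominator, against 138, 134, 586 and 540, and 593 in library 7 as the mean of single cells. Thinned to 3000 UMIs, the mean number of members detected was 0.374, 0.356, 0.995 and 0.949. For resolution 0.1 (2 clusters compared in libraries 5 and 6), resolution 0.5 (4) and 30 components (3), the share of all genes was not counted. The count of members differing between clusters of library 5 was 2, 3 and 3 under them, against 7. In library 6 it was 2, 3 and 3, against 5. Without the cluster highest in plasma cell markers, an alternative chosen after seeing the data, it was 4, 2 and 5 in libraries 5, 6 and 7, from 7, 5 and 8. The shares of all genes there were 24.2%, 23.2% and 16.3%, from 49.1%, 46.4% and 47.5%. The cause was not tested. The sign changed in 19 alternative values of 9 ratios, all of members not called in that pair, among them Dusp6 for library 7 over 5 (0.03 as the mean of single cells). Spry1 and Spry2 are limited by depth.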

Other observations

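The 4 libraries, which no label puts in a group, fell apart into 5 and 6 against 7 and 8 for most genes. With Dusp2 at 68.6, 66.5, 439 and 399 CPM, Dusp4 at 2.14, 2.89, 45.5 and 45.2 CPM and Dusp10 at 44.0, 43.7, 55.6 and 50.7 CPM in libraries 5, 6, 7 and 8, 8 of the 10 members had both 7 and 8 above both 5 and 6. The others of these 8 were Dusp5, Spry1, Spry2, Spred1 and Spred2. Spry2 reached 20 UMIs only through library 7, which held 21 of its 37. The same order held for 46.8% of 13033 genes with at least 20 UMIs, and the opposite order held for 40.7% of these genes and for 1 member, Dusp1 (1.78, 1.92, 1.52 and 1.55 CPM). Dusp6 interleaved, as did 12.6% of the genes. These orders take no account of counting error. No Dusp1 ratio between libraries was beyond it, nor was that of Spry2 for library 8 over 5 or library 8 over 6.

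Libraries 5 and 6, which differed at least 2-fold in 0.999% of genes, differed in a few of the early genes. Of 12 early genes with at least 20 UMIs in this pair, 1 (Fos) was called lower in library 6 and 0 higher. The median log2 ratio of the list was -0.09, beside 0.04 for all genes. Fos was at 1.38 CPM in library 5 and 0.658 in library 6 (log2 ratio of 6 over 5 -1.07, interval -1.72 to -0.44), and Egr1 at 35.7 and 20.4 CPM (-0.81, interval -0.92 to -0.69). Among the members Spred2 and Dusp6 were lower in library 6 (-0.50 and -0.29), while Dusp4 was higher (0.43). For Dusp6 and Dusp4 the intervals of the shares of cells with a UMI overlapped between libraries 5 and 6. Fos was singled out after its values were seen.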
